A study of Homo sapiens with 45 samples.

Results

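The genes described here encode the proteins that make, sense, carry and clear extracellular adenosine. They are 10 of the 28278 gene names in the count table of 8 RNA libraries from HCT116 cells, an established human colon cancer cell line. They comprise the ectonucleotidases NT5E, ENTPD1 and ENTPD2, the adenosine receptors ADORA1, ADORA2A and ADORA2B, the adenosine-clearing enzymes ADA and ADK, and the nucleoside transporters SLC29A1 and SLC29A2. The genes were listed by function, except that NT5E was chosen for its fall after HNRNPK depletion. Its values in that contrast are therefore a description and carry no test. All 10 genes had counts in every RNA library and all 10 passed the filter on low counts.

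The study asked how depletion of HNRNPK, the gene of the RNA-binding protein hnRNP K, alters chromatin at the nuclear lamina and gene expression. All cells were unmodified HCT116 cells transfected with siRNA, short double-stranded RNA that directs the degradation of a matching transcript, at 25 nM for 72 hours. Controls received a nontargeting siRNA, and come as 4 libraries named siNTC5 and 2 libraries named Scramble, both described in the labels as nontargeting control. The knockdown group, siHNRNPK, has 4 libraries. Libraries 1 and 2 of siNTC5 and siHNRNPK and both Scramble libraries were made with the TruSeq stranded mRNA kit, and libraries 3 and 4 of siNTC5 and siHNRNPK with the Ligation kit. Scramble RNA was purified with another kit, was sequenced more deeply and was deposited in separate tables, so effects of the control siRNA, purification, depth and table cannot be told apart. Nothing in the labels says that the libraries came from separate cultures, so p-values measure the spread between these libraries, which may be technical. Chromatin was described by 7 lists of called ChIP-seq domains, which are 1 list per antibody and siRNA and have no replicates: lamin B1, H3K9me3 and H3K27me3 in control (siControl) and siHNRNPK cells, and H3K9me2 in control cells.

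Cells release ATP and ADP, which ectonucleoside diphosphohydrolases such as ENTPD1 (CD39) and ENTPD2 hydrolyse at the cell surface, ENTPD1 down to AMP. The 5'-nucleotidase NT5E (CD73), anchored to the outer membrane by a lipid, converts AMP to adenosine. Adenosine binds G-protein-coupled receptors, of which ADORA2A and ADORA2B raise cyclic AMP through the stimulatory G protein and ADORA1 lowers it through inhibitory G proteins. The equilibrative transporters SLC29A1 (ENT1) and SLC29A2 (ENT2) move adenosine across the plasma membrane, and inside the cell ADK phosphorylates it to AMP while ADA deaminates it to inosine. In tumours the NT5E step is known as a source of adenosine that dampens immune cells.

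The promoters of 4 of these genes are shown because they carry the main contrasts of this set: NT5E starts inside a called H3K9me3 domain, ENTPD2 and ADORA2B were lower in siHNRNPK than in both kinds of control, and ADORA1 lies wholly within H3K27me3 domains. Each is the 250 bases before the annotated start, from RefSeq (GRCh38.p14), written 5′ to 3′ on the strand of the gene. Capitals mark GC boxes (GGGCGG, either strand) and half-sites of the cyclic AMP response element (TGACG, either strand). Of the 10 genes, 8 have an entry in the promoter table used; ADORA2A and SLC29A2 are not shown.
NT5E, chr6:85449833-85450082, plus strand: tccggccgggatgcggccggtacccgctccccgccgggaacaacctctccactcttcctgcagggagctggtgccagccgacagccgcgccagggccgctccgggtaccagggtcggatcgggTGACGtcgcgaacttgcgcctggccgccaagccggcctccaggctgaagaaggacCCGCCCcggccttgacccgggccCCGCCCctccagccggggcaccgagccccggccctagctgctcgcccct
ENTPD2, chr9:137054062-137054311, minus strand: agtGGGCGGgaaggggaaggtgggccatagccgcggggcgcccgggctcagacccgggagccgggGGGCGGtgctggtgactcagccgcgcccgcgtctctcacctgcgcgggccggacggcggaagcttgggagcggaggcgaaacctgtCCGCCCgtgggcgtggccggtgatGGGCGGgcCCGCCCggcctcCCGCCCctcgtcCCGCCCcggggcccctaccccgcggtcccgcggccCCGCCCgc
ADORA2B, chr17:15944880-15945129, plus strand: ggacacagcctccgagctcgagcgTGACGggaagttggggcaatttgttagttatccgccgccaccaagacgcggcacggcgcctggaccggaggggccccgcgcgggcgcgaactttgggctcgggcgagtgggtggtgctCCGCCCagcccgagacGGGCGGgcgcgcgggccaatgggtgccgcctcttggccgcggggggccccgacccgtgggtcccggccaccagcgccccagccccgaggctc
ADORA1, chr1:203127476-203127725, plus strand: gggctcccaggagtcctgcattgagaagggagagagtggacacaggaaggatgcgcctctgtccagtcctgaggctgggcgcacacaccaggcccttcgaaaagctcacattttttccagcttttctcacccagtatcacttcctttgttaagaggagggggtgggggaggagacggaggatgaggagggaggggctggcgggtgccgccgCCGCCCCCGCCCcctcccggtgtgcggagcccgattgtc
Motifs were counted in windows of 300 bases that reach 50 bases past the start. The NT5E window held 2 GC boxes, beginning 72 and 49 bases before the start, and 1 TGACG half-site, beginning 127 bases before it. The ENTPD2 window held 8 GC boxes and no TGACG. The ADORA2B window held 2 GC boxes and 1 TGACG, which begins 226 bases before the start and overlaps a GCGTG motif. The ADORA1 window held 2 GC boxes, directly adjacent to each other, and no TGACG. Of 35116 promoter windows of the same length, 45.0% held a GC box and 24.6% held TGACG. The GC content of the windows was 75.0% for NT5E, 80.0% for ENTPD2, 75.7% for ADORA2B and 65.0% for ADORA1, against a median of 58.7% over all windows. A match is a description of letters, not of binding.

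Total counts ranged from 14810376 to 23633851 in siNTC5, from 12107280 to 15255556 in siHNRNPK and from 55007171 to 59209169 in Scramble. HNRNPK itself stood at 886 ± 74.7 CPM (TMM-normalised read counts, scaled as if every library had the same depth, SD, n = 4) in siNTC5, at 198 ± 45.7 CPM (SD, n = 4) in siHNRNPK and at 833 ± 25.5 CPM (SD, n = 2) in Scramble, so every siHNRNPK library was depleted as labelled. The epithelial markers EPCAM (245 to 417 CPM over the 10 libraries), KRT8, KRT18, KRT19 and CDH1 were high, the intestinal factor CDX2 was at 9.07 to 21.1 CPM, CDH17, VIL1, CDX1 and LGR5 were at no more than 1.10 CPM, and ASCL2 was at 0 counts. The summed level of the 11 epithelial markers was 2698 to 3131 CPM in siNTC5, 4408 to 5403 CPM in siHNRNPK and 4161 to 4265 CPM in Scramble; its part in the results was not tested. The sums of 5 leukocyte and 3 endothelial markers did not exceed 1.68 and 3.29 CPM, and that of 7 fibroblast markers, mostly COL1A1, reached 122 CPM in siHNRNPK against 73.8 CPM in siNTC5.

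The knockdown comparison asked which adenosine genes differ between siHNRNPK and siNTC5. NT5E was at 21.0% of its siNTC5 level, and of the other 9 genes ENTPD2, ADORA2B, SLC29A2 and SLC29A1 fell and ADORA2A rose. ENTPD1, ADORA1, ADA and ADK did not pass the test. These 5 calls among 9 genes (adjusted p under 0.05 in edgeR's quasi-likelihood test, with library kit in the model) stand against 71.5% of all 13933 tested genes, a larger share than in the 9. The 4 lower and 1 higher of the 9 stand against 36.1% of all genes called lower and 35.5% called higher. The median log2 fold change of the 9 genes was -0.17, against -0.004 for all tested genes. In 4 of the 9 genes (ENTPD2, ADORA2A, ADORA2B and SLC29A2) the libraries of the 2 groups did not overlap, which was so for 56.5% of all tested genes.

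**Figure D1:**
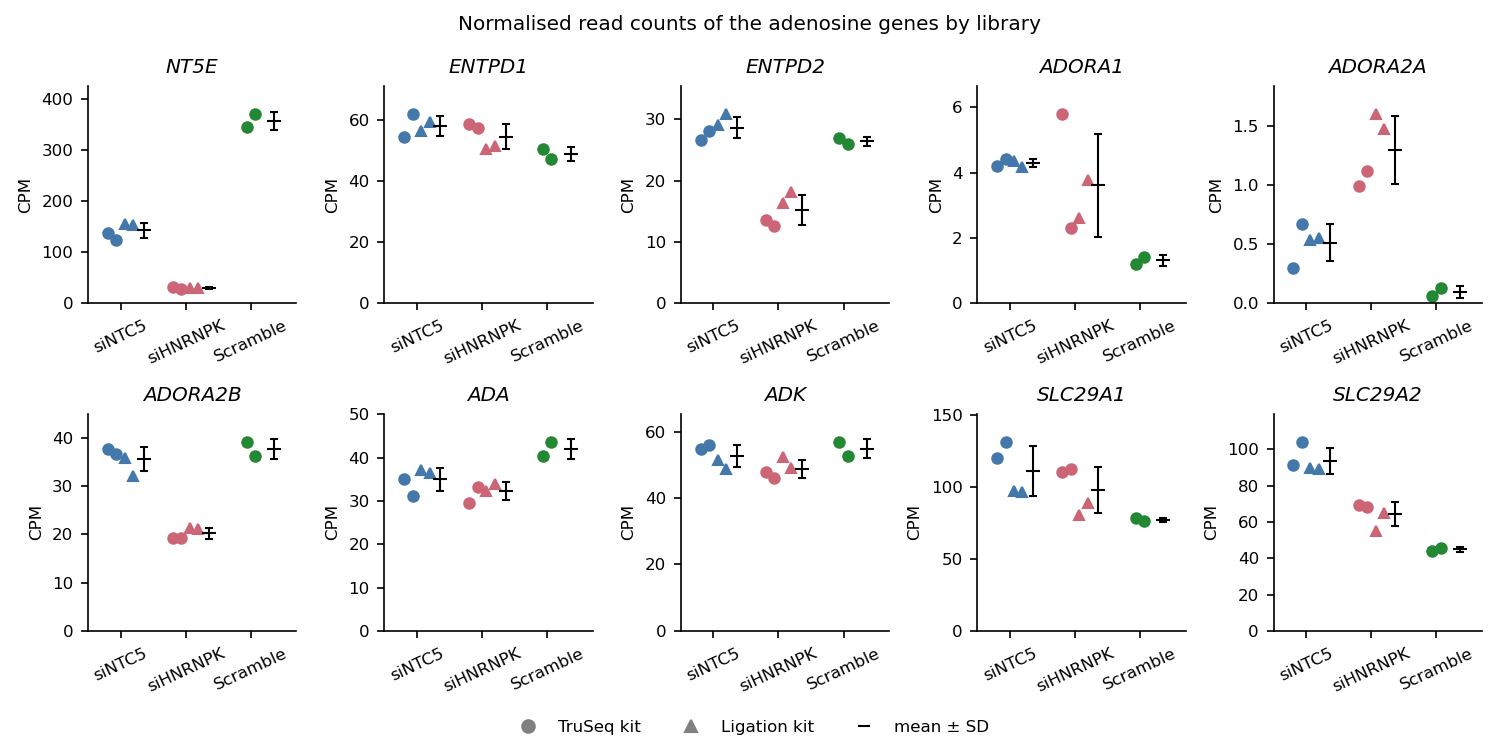
Normalised read counts (CPM, vertical axes from 0) of the 10 adenosine genes in 4 siNTC5, 4 siHNRNPK and 2 Scramble libraries. Points are libraries, with circles for the TruSeq kit and triangles for the Ligation kit, and black bars are the mean ± SD; NT5E lies between 27.9 and 32.2 CPM in siHNRNPK and at 124 CPM or more in every control.

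NT5E (RefSeq gene 4907, chr6:85450083-85495784) makes adenosine from AMP. In siNTC5 libraries 1 to 4 it stood at 137, 124, 154 and 154 CPM, in siHNRNPK libraries 1 to 4 at 32.2, 27.9, 30.2 and 29.4 CPM, and in the Scramble libraries at 344 and 370 CPM. The groups did not overlap, and the Scramble libraries were the highest. Over groups this was 142 ± 14.6 CPM (SD, n = 4), 29.9 ± 1.79 CPM (SD, n = 4) and 357 ± 18.1 CPM (SD, n = 2). The log2 fold change of siHNRNPK against siNTC5 was -2.23 ± 0.06 (SE), the 83rd lowest of 13933 tested genes. Within kits NT5E stood at 23.0% of siNTC5 in TruSeq and at 19.3% in Ligation libraries. In bulk RNA, fewer cells that express a gene and less RNA of it per cell cannot be told apart.

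ENTPD1 (chr10:95694185-95877266), which hydrolyses ATP and ADP, was at 54.5, 61.9, 56.5 and 59.6 CPM in siNTC5 and at 58.7, 57.5, 50.6 and 51.6 CPM in siHNRNPK. The groups overlapped, and its log2 fold change was -0.08 with a standard error of 0.06 (edgeR adjusted p 0.217) with a 95% interval from -0.21 to 0.04. It passed the test in the Ligation libraries alone (-0.18, adjusted p 0.0299) and without siNTC5 replicate 1 (-0.14, adjusted p 0.0400). ENTPD1 shares its locus with ENTPD1-AS1, which rose from 0.340 to 1.54 CPM (log2 fold change 2.12 ± 0.34, SE, adjusted p 1.67e-05 in edgeR). The library kits keep strand, but the strand setting of the counting is not given in the sources used here, so reads of the 2 genes may not be fully separated.

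ENTPD2 (chr9:137048107-137054061), which favours ATP over ADP as its substrate, fell to 53.0% of its siNTC5 level. It was at 26.6, 28.1, 29.0 and 30.8 CPM in siNTC5 and at 13.6, 12.6, 16.4 and 18.1 CPM in siHNRNPK. Every siHNRNPK library was below every siNTC5 library. The log2 fold change was -0.92 with a standard error of 0.08 (edgeR adjusted p 1.46e-08), and it was called lower under all 18 alternatives. The gene overlaps the uncharacterised locus LOC105376327.

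The receptors went in different directions. ADORA2B (chr17:15850362-15975746), the low-affinity receptor coupled to the stimulatory G protein, was at 37.8, 36.6, 35.8 and 32.1 CPM in siNTC5 and at 19.2, 19.3, 21.3 and 21.2 CPM in siHNRNPK. The groups were well apart, with a level of 57.0% of siNTC5 and a log2 fold change of -0.81 with a standard error of 0.08 (edgeR adjusted p 3.23e-08). It too was called lower under all 18 alternatives. ADORA2A (chr22:24423597-24442357), the high-affinity receptor with the same coupling, had few reads: 5, 16, 8 and 10 in siNTC5, 15, 15, 19 and 18 in siHNRNPK, and 3 and 6 in Scramble. In CPM this was 0.295, 0.669, 0.536 and 0.551 in siNTC5 against 0.987, 1.12, 1.59 and 1.47 in siHNRNPK. No library of 1 group reached the other, and the log2 fold change was 1.27 with a standard error of 0.32 (edgeR adjusted p 0.00159). Within the TruSeq libraries alone it was 1.05 and not called (adjusted p 0.0917), and at a mean of at least 50 counts the gene was not tested.

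ADORA2A overlaps ADORA2A-AS1 and the readthrough gene SPECC1L-ADORA2A, and both were higher in siHNRNPK as well. ADORA2A-AS1 rose from 1.54 ± 0.50 to 6.10 ± 0.54 CPM (SD, n = 4 each), which is a log2 fold change of 2.01 with a standard error of 0.20 (edgeR adjusted p 3.27e-08). SPECC1L-ADORA2A had 0 to 1 reads in siNTC5 and 5 to 8 in siHNRNPK and was not tested. Reads of the ADORA2A locus could be split among these genes, so the rise of ADORA2A alone is uncertain. SPECC1L, whose first part the readthrough shares, fell (-0.71 ± 0.08, SE, adjusted p 2.69e-07 in edgeR).

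ADORA1 (chr1:203127726-203167405), the receptor that lowers cyclic AMP, was steady in siNTC5 at 4.20, 4.43, 4.35 and 4.19 CPM and scattered in siHNRNPK at 5.79, 2.30, 2.60 and 3.76 CPM. The siHNRNPK libraries lay on both sides of the controls. Its log2 fold change of -0.22 with a standard error of 0.22 (edgeR adjusted p 0.373) had a 95% interval from -0.68 to 0.23. Without siHNRNPK replicate 1, the highest library, it was -0.60 with an adjusted p of 0.0124. The remaining adenosine receptor, ADORA3, had 0 counts in all 10 libraries.

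Neither enzyme that clears adenosine inside the cell passed the test. ADA (chr20:44619522-44651699) was at 35.2, 31.1, 37.1 and 36.5 CPM in siNTC5 and at 29.5, 33.3, 32.3 and 34.0 CPM in siHNRNPK, a log2 fold change of -0.10 with a standard error of 0.07 (edgeR adjusted p 0.188, 95% interval -0.25 to 0.04). ADK (chr10:74151221-74709290) was at 54.8, 56.1, 51.3 and 48.7 CPM in siNTC5 and at 47.8, 46.0, 52.2 and 49.0 CPM in siHNRNPK, a log2 fold change of -0.11 with a standard error of 0.06 (edgeR adjusted p 0.144, 95% interval -0.24 to 0.03). For both the groups overlapped. In the TruSeq libraries alone ADK was called lower (log2 fold change -0.24, adjusted p 0.0268), in the Ligation libraries alone it stood at 0.03 (adjusted p 0.766), and it was also called without siHNRNPK replicate 3 (-0.16, adjusted p 0.0412). ADK overlaps ADK-AS1, 2 uncharacterised loci and 6 pseudogenes.

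Both equilibrative transporters fell against siNTC5. SLC29A2 (chr11:66362521-66372446) was at 91.2, 104, 89.6 and 89.2 CPM in siNTC5 and at 69.1, 68.5, 54.9 and 64.9 CPM in siHNRNPK. Every siHNRNPK library was lower, and the log2 fold change was -0.53 with a standard error of 0.06 (edgeR adjusted p 1.73e-07). SLC29A1 (chr6:44219615-44234142) was at 120, 131, 97.1 and 96.2 CPM in siNTC5 and at 110, 112, 80.5 and 88.5 CPM in siHNRNPK. Its level depended on the kit, with siNTC5 Ligation libraries at 0.771 of TruSeq libraries, so the groups overlapped overall while both siHNRNPK libraries were below both siNTC5 libraries within each kit. The log2 fold change was -0.17 with a standard error of 0.05 (edgeR adjusted p 0.00350), and without the kit term it was not called (adjusted p 0.259). With the Scramble libraries added as controls both transporters lost their call, SLC29A2 at -0.26 (adjusted p 0.423) and SLC29A1 at 0.01 (adjusted p 0.968). SLC29A2 overlaps the divergent transcript B4GAT1-DT.

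**Figure D2:**
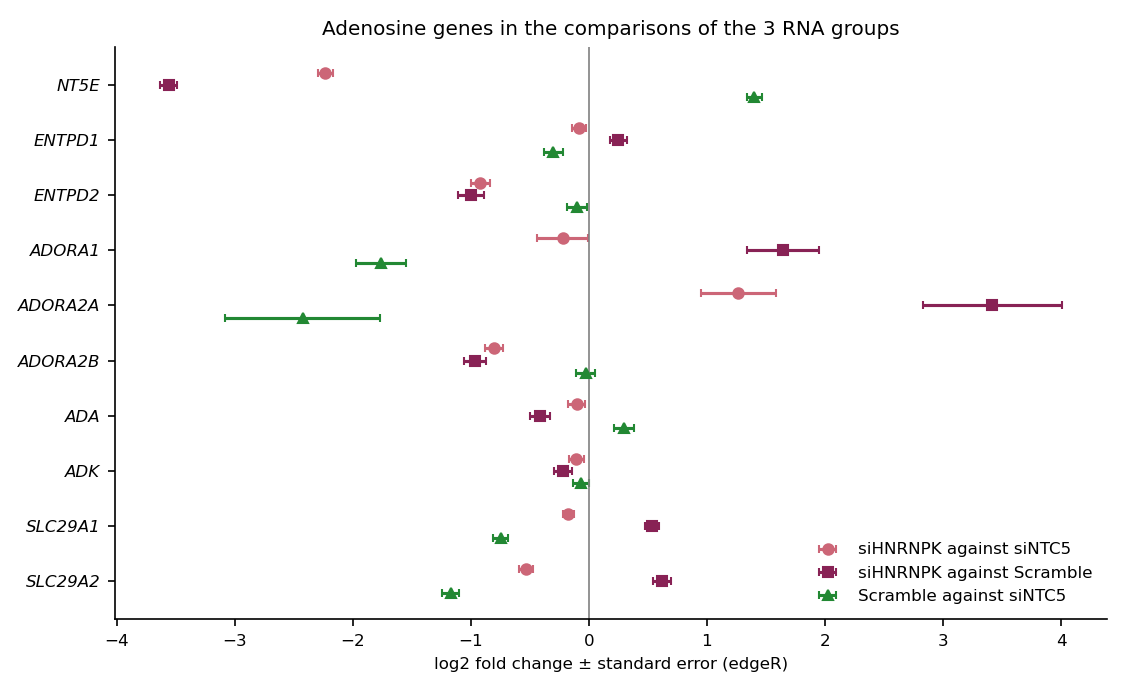
Log2 fold changes (horizontal axis, edgeR, bars are the standard error) of the 10 genes for siHNRNPK against siNTC5 (circles), siHNRNPK against Scramble (squares) and Scramble against siNTC5 (triangles); the comparisons share libraries. ENTPD2 and ADORA2B are close to 0 between the controls, while SLC29A1 and SLC29A2 lie on opposite sides of 0 for the 2 controls.

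The comparison of Scramble with siNTC5 asked how far the 2 kinds of nontargeting control differ. NT5E was 2.51 times as high in Scramble in CPM, with a log2 fold change of 1.40 with a standard error of 0.06. This too is a description, since the siNTC5 libraries were part of the contrast that NT5E was chosen by. Of the other 9 genes, 6 differed, against 68.6% of all 14263 genes tested. ADORA1 was at 4.29 ± 0.12 CPM (SD, n = 4) in siNTC5 and lower, at 1.20 and 1.43 CPM, in Scramble, a log2 fold change of -1.76 with a standard error of 0.21 (edgeR adjusted p 1.17e-05). SLC29A2 was lower at 44.0 and 45.8 CPM (-1.17 ± 0.07, SE, adjusted p 2.13e-08), and SLC29A1 at 78.2 and 76.2 CPM (-0.75 ± 0.06, SE, adjusted p 3.56e-07). ENTPD1 was lower at 50.5 and 47.4 CPM (-0.30 ± 0.08, SE, adjusted p 0.00424). ADORA2A was lower as well (-2.42 ± 0.66, SE, adjusted p 0.00553), on 3 and 6 reads. Its value was -3.02 without Scramble replicate 6 and -1.96 without Scramble replicate 5 (adjusted p 0.0120 and 0.0459 in edgeR), and the gene did not pass the filter on low counts without siNTC5 replicate 2 or at a mean of at least 50 counts.

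ADA was the member besides NT5E that was higher in Scramble, at 40.4 and 43.6 CPM, with a log2 fold change of 0.30 with a standard error of 0.08 (edgeR adjusted p 0.00712). It lost its call without the kit term (adjusted p 0.0566), without siNTC5 replicate 2 (0.0621) and without Scramble replicate 6 (0.0665). ENTPD2 stood at 26.9 and 25.9 CPM in Scramble (-0.10 ± 0.08, SE, adjusted p 0.286), ADORA2B at 39.1 and 36.3 CPM (-0.03 ± 0.08, SE, adjusted p 0.783) and ADK at 56.8 and 52.8 CPM (-0.07 ± 0.07, SE, adjusted p 0.421). For these 3 genes the 95% intervals of the difference were -0.28 to 0.08, -0.20 to 0.15 and -0.22 to 0.09.

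Against the Scramble libraries, which share the siHNRNPK libraries with the first comparison, all 9 genes besides NT5E were called, where 81.6% of all 14217 genes tested were. ENTPD2 was lower, at -1.0 ± 0.11 (SE, adjusted p 2.30e-10 in edgeR), and so was ADORA2B, at -0.96 ± 0.09 (SE, adjusted p 1.53e-11). ADORA2A was higher against both, with 3.42 ± 0.59 (SE, adjusted p 3.23e-06) against Scramble. The transporters had the other sign here, with SLC29A1 higher at 0.53 ± 0.06 (SE, adjusted p 1.41e-09) and SLC29A2 higher at 0.62 ± 0.07 (SE, adjusted p 2.57e-09). In CPM, siHNRNPK lay between the 2 kinds of control for both transporters, at 97.9 between 111 and 77.2 CPM for SLC29A1 and at 64.3 between 93.5 and 44.9 CPM for SLC29A2. So the direction of the transporters after HNRNPK depletion depended on the control used.

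NT5E had a log2 fold change of -3.56 ± 0.07 (SE) against Scramble, given as a description, and stood at 8.38% of the Scramble level. ADORA1 was higher than in Scramble (1.65 ± 0.31, SE, adjusted p 1.15e-05 in edgeR), and without siHNRNPK replicate 1 it was at 0.82 and not called (adjusted p 0.0627). ENTPD1 was higher (0.25 ± 0.07, SE, adjusted p 0.00184) and lost its call without the kit term (adjusted p 0.104). ADA was lower (-0.42 ± 0.08, SE, adjusted p 3.66e-05). ADK was lower (-0.22 ± 0.07, SE, adjusted p 0.00774) and lost its call under 5 of 13 alternatives, among them without siHNRNPK replicate 2 (adjusted p 0.0748) and without Scramble replicate 5 (0.0569). Upper-quartile normalisation moved the median of all genes in this comparison from -0.04 to 0.14 and the share of calls that were higher from 47.6% to 56.7%, and NT5E then stood at -3.38.

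Whether depletion acted alike in TruSeq and Ligation libraries was tested by the product of treatment and kit. For NT5E, whose choice used these same libraries, it was -0.24 ± 0.11 (SE, log2), given as a description. In edgeR, 0 of the other 9 genes passed, against 0.129% of all genes, and DESeq2 also called 0. At an unadjusted p under 0.05, which 11.8% of all genes had, there were 2, ADK (0.28 ± 0.11, SE, adjusted p 0.327) and ADORA2B (0.29 ± 0.14, SE, adjusted p 0.416).

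The genes whose levels followed NT5E most closely over the 8 libraries of the knockdown table were USO1, ONECUT3, MALL, TPM4 and KREMEN1. Pearson's r to NT5E, over log2 CPM after subtracting kit means, was 0.9998, 0.9998, 0.9996, 0.9995 and 0.9994, among 9997 genes with an average log2 CPM of at least 3. These points share the treatment, and 2243 of the genes had an r over 0.95, so the value describes a common step between the groups. USO1 (a vesicle tethering factor) had a log2 fold change of -1.48, ONECUT3 (a homeobox factor) of -2.22, MALL (a membrane raft protein) of -2.52, TPM4 (a tropomyosin) of -0.89 and KREMEN1 (a Dickkopf receptor) of -2.80. Against Scramble, ONECUT3 had the other sign (0.78), while the others were lower (-2.06 for USO1, -5.10 for MALL, -1.36 for TPM4 and -3.14 for KREMEN1).

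The wider purine pathway was described with 6 lists of 104 genes that are not among the 10, of which 69 were tested and 35 had too few counts. In the knockdown comparison 57 of the 69 were called, 22 higher and 35 lower, which is 82.6% against 71.5% of all genes, with a median log2 fold change of -0.21 against -0.004. Other enzymes of adenosine, AMP and inosine had 15 lower and 3 higher of 20 tested (median -0.31), where 36.1% of all genes were called lower and 35.5% higher. The most lowered was NT5M, a mitochondrial nucleotidase, at 4.03 ± 1.09 CPM in siNTC5 and 0.199 ± 0.178 CPM in siHNRNPK (SD, n = 4 each), with 0 to 5 reads per siHNRNPK library and a log2 fold change of -4.32 with a standard error of 0.37 (edgeR adjusted p 6.89e-09). DPP4 (CD26), a surface peptidase that binds ADA, fell from 18.6 ± 2.73 to 5.80 ± 0.84 CPM (SD, n = 4 each; -1.65 ± 0.11, SE, adjusted p 2.58e-10). AHCY, which releases adenosine from S-adenosylhomocysteine, fell less (-0.54 ± 0.05, SE, adjusted p 4.63e-09), and PNP, which acts on the inosine made by ADA, did not pass (-0.02, adjusted p 0.783).

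Signalling genes below the receptors were changed in both directions, with 8 higher and 11 lower of 21 tested (median -0.12), where 35.5% of all genes were higher and 36.1% lower. Both catalytic subunits of protein kinase A fell, PRKACB from 395 ± 12.2 to 143 ± 11.01 CPM (SD, n = 4 each; -1.45 ± 0.04, SE, adjusted p 7.40e-15 in edgeR) and PRKACA by -1.21 ± 0.07 (SE, adjusted p 5.92e-11), as did the regulatory subunit PRKAR1B (-1.21 ± 0.14, SE, adjusted p 2.09e-07). GNAI2, the inhibitory G protein subunit to which ADORA1 can couple, fell from 263 ± 25.3 to 99.5 ± 4.86 CPM (SD, n = 4 each; -1.39 ± 0.05, SE, adjusted p 5.69e-14), while GNAS, the stimulatory subunit, changed by -0.12 ± 0.04 (SE, adjusted p 0.0113). Of the adenylyl cyclases, ADCY9 fell (-1.23 ± 0.11, SE, adjusted p 1.87e-08) and ADCY5 rose from a low level (1.08 ± 0.23, SE, adjusted p 4.48e-04). By less than 1 on the log2 scale, ADCY3 fell (-0.99 ± 0.05, SE, adjusted p 9.01e-12 in edgeR). ADCY7 rose (0.48 ± 0.06, SE, adjusted p 6.36e-07), and ADCY6 was not called (0.14 ± 0.06, SE, adjusted p 0.0533). The cyclic AMP phosphodiesterases PDE4C (1.12 ± 0.17, SE, adjusted p 1.30e-05) and PDE4D (1.05 ± 0.34, SE, adjusted p 0.0103) rose, also from low levels. In the same family PDE4A fell (-0.85 ± 0.06, SE, adjusted p 1.385e-10 in edgeR) and PDE4B rose less (0.19 ± 0.05, SE, adjusted p 0.00125).

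Other enzymes of extracellular nucleotides had 4 higher and 5 lower of 10 tested (median -0.23). For this list and those that follow, the shares over all genes were 35.5% called higher and 36.1% called lower. ENPP2 (autotaxin), known for making lysophosphatidic acid rather than for nucleotides, rose from 0.543 to 1.24 CPM (1.16 ± 0.33, SE, adjusted p 0.00452 in edgeR). Other nucleoside transporters had 1 higher and 1 lower of 3, with SLC29A4, a monoamine and adenosine transporter, lower (-1.31 ± 0.11, SE, adjusted p 7.33e-09). Purine and pyrimidine receptors had 3 higher and 1 lower of 6, with the ATP-gated channel P2RX4 lower (-1.35 ± 0.10, SE, adjusted p 1.24e-09). Genes of ATP release had 3 higher and 2 lower of 9. In all, 13 of the 69 genes passed and changed by at least 1 on the log2 scale, against 15.8% of all genes. Against Scramble, a comparison that shares the siHNRNPK libraries, the 9 lower genes of these 13 had log2 fold changes from -6.48 to -1.49. There ADCY5 (2.52) and PDE4C (3.07) were called higher, while ENPP2 (0.43, adjusted p 0.373 in edgeR) and PDE4D (0.002, adjusted p 0.996) were not called.

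**Figure D3:**
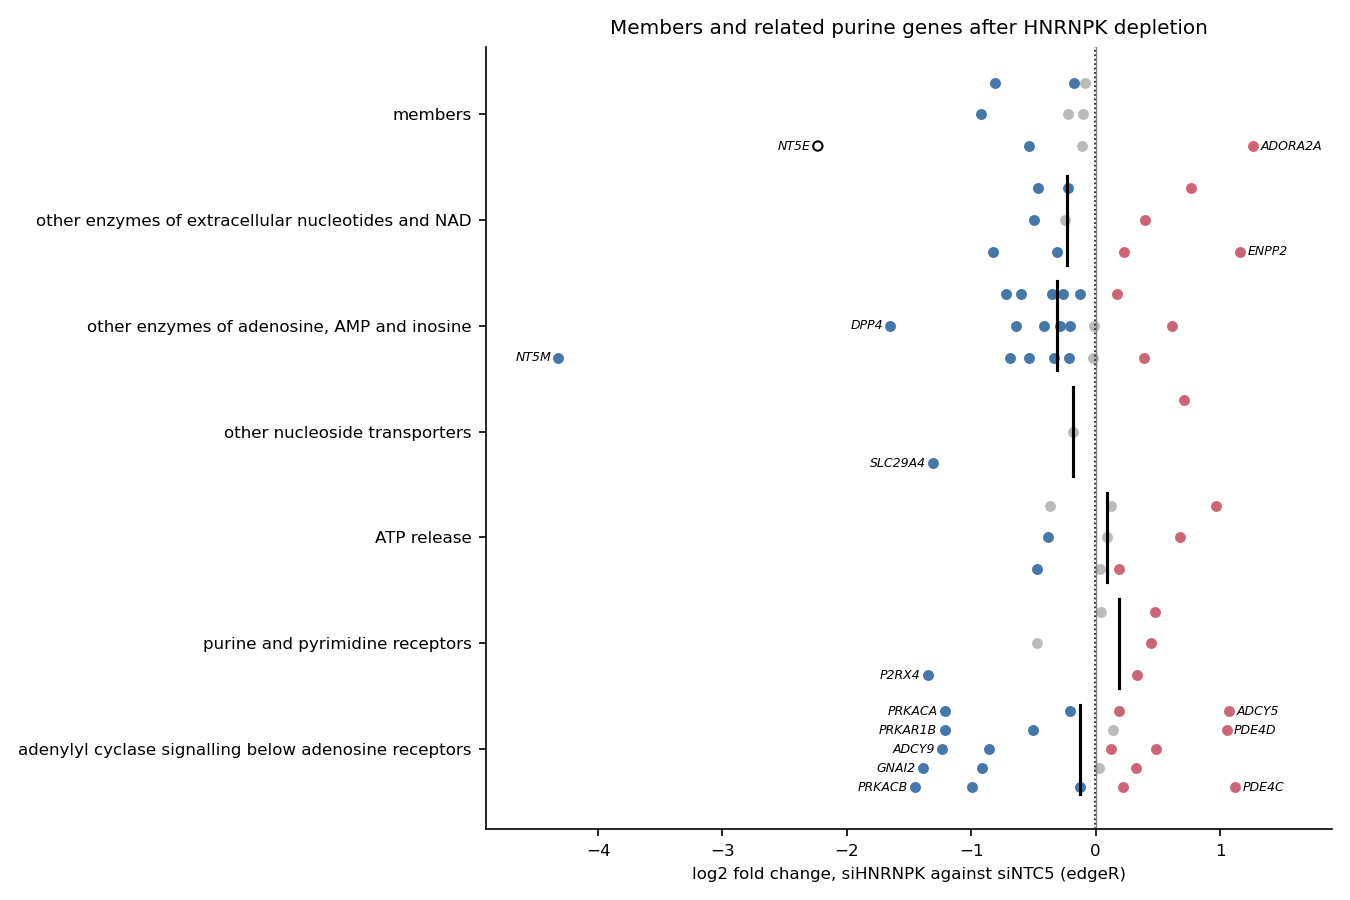
Log2 fold changes of siHNRNPK against siNTC5 (horizontal axis, edgeR) for the 10 genes and for the 6 lists of related purine genes; vertical spread within a list carries no value. Blue and red points are called lower and higher, grey points are not called, the open circle is NT5E, short vertical bars are list medians and the dotted line is the median of all tested genes (-0.004). Genes with a change of at least 1 on the log2 scale are named, with NT5M lowest at -4.32.

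The domain lists asked where these genes lie relative to lamin B1, a filament protein beneath the nuclear membrane, and to the repressive marks H3K9me2, H3K9me3 and H3K27me3. None of the 10 genes had a base in a lamin B1 domain in control or siHNRNPK cells or in an H3K9me2 domain, where 11.1%, 7.83% and 7.19% of 20033 protein-coding genes did. ADORA1 lay wholly within an H3K27me3 domain in both lists (chr1:203060001-203620000 in control and chr1:203070001-203610000 in siHNRNPK cells), and the other 9 genes had no base in one, where 24.6% of all genes did in control and 22.4% in siHNRNPK cells. The gene was expressed at a low level in every library, as given above. The nearest H3K27me3 domains to the others in control cells began 20.9 kb from SLC29A1 and 23.3 kb from ADA. The lamin B1 domain nearest to any of the 10 genes was 140 kb from NT5E in control cells. In siHNRNPK cells it was 13.1 kb from ENTPD2, whose nearest control lamin B1 domain was 14258 kb away. That siHNRNPK domain is a single call of 95.0 kb with a score of 0.520, and the lists have no replicates.

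NT5E touched an H3K9me3 domain in both lists. The control domain, chr6:85385001-85455000, spanned 70.0 kb and covered 10.8% of the gene, and the siHNRNPK domain, chr6:85385001-85460000, spanned 75.0 kb and covered 21.7%. The difference in span is 1 step of the 5 kb grid on which the domain edges lie, and the lists have no replicates. The score of this domain was 0.564 in control and 0.869 in siHNRNPK cells, in a unit that is not given. That difference was not tested. The whole 300-base promoter window printed in part above lay within the domain in both lists. The start of NT5E was thus inside a called H3K9me3 domain in control and in siHNRNPK cells. Any part of this domain in the level of NT5E RNA was not tested. The nearest lamin B1 domain was 140 kb away in control cells, where it spanned 1035 kb, and 155 kb away in siHNRNPK cells, where it spanned 100.0 kb. The nearest protein-coding gene on that side, TBX18, a transcription factor, lay wholly in the control lamin B1 domain and outside those of siHNRNPK cells. It lay wholly within an H3K27me3 domain in both lists. Its RNA had a log2 fold change of 0.01 with a standard error of 0.10 against siNTC5 (edgeR adjusted p 0.963). Against Scramble TBX18 was higher (0.73 ± 0.12, SE, adjusted p 2.86e-06 in edgeR). Between the controls it was lower in Scramble than in siNTC5 (-0.69 ± 0.14, SE, adjusted p 6.40e-04 in edgeR). On the other side SNX14, a sorting nexin with no base in any of these domains, fell from 120 ± 10.8 to 85.3 ± 3.14 CPM (SD, n = 4 each; -0.48 ± 0.05, SE, adjusted p 3.32e-08).

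**Figure D4:**
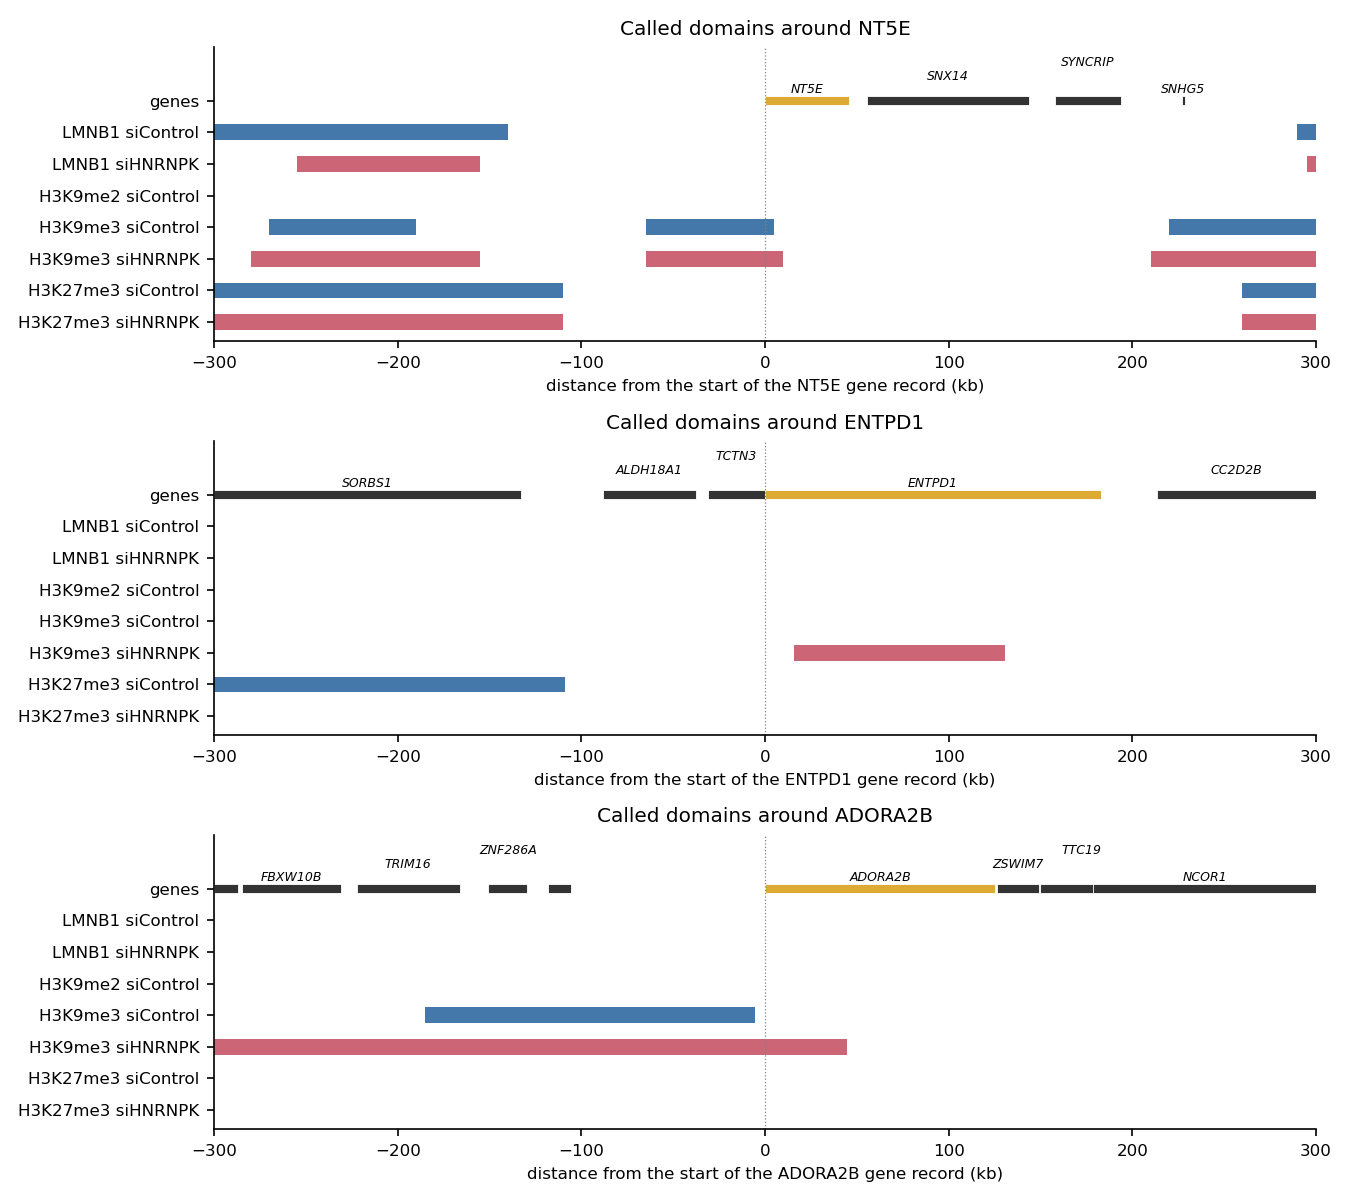
Called domains within 300 kb of the start of the NT5E, ENTPD1 and ADORA2B gene records (horizontal axes in kb), with genes in the upper row (yellow for the named gene), control domains in blue and siHNRNPK domains in red; H3K9me2 was listed for control cells. The H3K9me3 row of siHNRNPK cells shows the 115 kb domain inside ENTPD1 and the 375 kb domain that reaches into ADORA2B.

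ENTPD1 and ADORA2B had H3K9me3 cover in siHNRNPK cells and none in control cells. In ENTPD1 the siHNRNPK list held a domain of 115 kb (chr10:95710001-95825000) over 62.8% of the gene, which contained 4 of its 5 listed starts and not the first, while the nearest control domain was 2519 kb away. At ADORA2B the control domain (chr17:15665001-15845000) ended 5.36 kb before the gene record, and the siHNRNPK domain (chr17:15520001-15895000) covered 35.6% of it. All of that cover lay before the listed start at position 15945130, whose promoter is printed above. So 3 of 10 genes had more H3K9me3 cover in siHNRNPK cells and 0 less, where 7.54% of all protein-coding genes had more and 0.285% less. In NT5E this was the grid step given above, and in ADORA2B it did not reach the listed start. Across genes, of 833 tested genes with more cover 284 were called higher and 291 lower, with a median log2 fold change of -0.0049. Of 11126 with no H3K9me3 base in either list 3860 were higher and 4318 lower, with a median of -0.0291. Whether cover bears on RNA was not tested. Of the 3 members with more cover, NT5E, which was chosen for its fall, and ADORA2B were lower than in siNTC5. The other, ENTPD1, did not pass the test against siNTC5.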

How the data were processed

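RNA was measured in 10 libraries. The authors deposited raw counts for each gene symbol in 1 table of 8 libraries and in a separate table for each Scramble library; STAR 2.7.1a, featureCounts (Subread 2.0.6) and hg38 are named per the submitters' processing notes, with hg19 and hg38 for Scramble. The annotation and strand setting are not given in the sources used here. The deposited domain lists carry a score per domain, whose unit is not given. The score is quoted for the H3K9me3 domain at NT5E and for a lamin B1 domain near ENTPD2. It also served in 1 alternative, which kept domains at or above the median score of their list. Bowtie2 2.5.1, deepTools 3.1.3 and hg38 are named per the submitters' processing notes for ChIP.

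Counts were tested in edgeR 4.0.16 (R 4.3.3) with filterByExpr, TMM, library kit in the model and the quasi-likelihood test, adjusted by Benjamini and Hochberg over all tested genes at 0.05. Comparisons with Scramble used the 25527 names shared by the tables (28278 and 27135 names). CPM values of all libraries were normalised together over those names, so ratios of CPM can differ slightly from fitted fold changes. Same-numbered libraries deviated together (r across genes 0.100, 0.425, 0.337 and 0.265), so a replicate block was tried; after removing kit means r was at most 0.058. The edgeR knockdown fit was checked on simulated counts with few changed genes and no kit effect, unlike these data, where most genes were called. The other comparisons were not simulated. DESeq2 1.42.0 was an alternative, beside other normalisations, filters, kits alone and each library left out.

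Genes were placed by RefSeq (GRCh38.p14). Domain cover is the share of the gene body. Besides the 10 genes and HNRNPK, the text names called list genes that changed by at least 1 on the log2 scale. It also names the 5 genes most like NT5E and its nearest protein-coding neighbours. AHCY, PNP, GNAS, GNAI1, GNAI3, PRKAR1A, PRKAR2A, PRKAR2B, ADCY3, ADCY6, ADCY7, PDE4A, PDE4B, ADORA3, the overlapping genes and the genes further along from NT5E were added after their values were seen. The members and lists were chosen with earlier results of these data known.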

Additional observations from a re-analysis of the deposited data

Results flagged for a closer look

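SLC29A2 in the siNTC5 libraries had 1 library far from the others: replicate 2 stood at 104 CPM, while the other 3 lay between 89.2 and 91.2 CPM. Its gap to the nearest library was 0.862 of the range of the group, above the critical value of Dixon's test for 4 libraries. In all, 22 groups of values were checked and 1 stood out, and chance gives about 1 in 20. Leaving out that library changed neither the direction nor the call of SLC29A2 against siNTC5.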

How the results depend on the processing

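Over 18 alternatives of the knockdown comparison the number of genes called was between 6965 and 10865 (9968 as reported), and ENTPD2 and ADORA2B kept their direction and call. With the Scramble libraries added as controls 3 members besides NT5E were called in place of 5, and ADORA1 (0.16) and SLC29A1 (0.0088) reversed. In the Ligation libraries alone ADK reversed (0.027). The number of genes called for the kit interaction, 18, was 239 with no filter, 71 in DESeq2 and between 6 and 598 with each library left out, where the lone library of an arm is assumed to vary like the others; it was 364 and 598 without siNTC5 replicates 1 and 2. In Scramble against siNTC5, ADORA2B reversed to 0.011 with no filter and 0.045 without the kit term, it lay between -0.074 and 0.027 with each library left out (0.027 without Scramble replicate 6), and ADK reversed to 0.015 without the kit term. Upper-quartile normalisation moved the share of calls higher in Scramble from 51.2% to 44.3%. The causes were not tested. With the replicate block in place of kit, 9872 genes were called, and the pairing changed no call of the 10 genes. The count of members in control lamin B1 domains was 0 by at least 50% of the gene body, by any base, by midpoint, in domains of at least 100 kb and in those at or above the median score. Depth limits ADORA2A most, with 3 to 19 reads per library.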

Other observations

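Further along chromosome 6 from NT5E, beyond SNX14, the next genes behaved differently. SYNCRIP, which encodes another RNA-binding hnRNP, stood at 576 ± 41.4 CPM in siNTC5 and 548 ± 35.8 CPM in siHNRNPK (SD, n = 4 each), or in log2 terms a change of -0.06 with a standard error of 0.04 (edgeR adjusted p 0.128). SNHG5, a host gene of small nucleolar RNAs, rose from 33.9 ± 1.46 to 100.06 ± 10.1 CPM (SD, n = 4 each), or by 1.57 in log2 terms with a standard error of 0.06 (edgeR adjusted p 4.29e-14), and was also higher against Scramble (1.29 ± 0.07, SE). SYNCRIP had no base in any called domain, and SNHG5 lay wholly within an H3K9me3 domain in both H3K9me3 lists. These 2 genes were picked with their values in view.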
